A study of Mus musculus with 6 samples.

Results

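The genes described here make, destroy and carry retinoic acid, and they were followed in mouse epiblast stem cells that had differentiated as embryoid bodies in serum for 2 days. The set was fixed by symbol and holds 9 genes of 55471 counted gene identifiers. Such cells are pluripotent and stand for the late epiblast, and Mixl1 encodes a homeobox factor of the primitive streak. The study compared 3 RNA-seq libraries labelled Mixl1 KO with 3 labelled Mixl1 induced, from a line with inducible Mixl1 that was given doxycycline at 1 µg/mL during the final 24 h. All cells had been maintained on irradiated mouse embryonic fibroblasts with bFGF and Activin A before aggregation. The labels name neither the promoter that drives Mixl1, nor the altered exons, nor the strain or clone of either line. They also leave out whether the knockout cells received the drug and whether the inducible line carries the knockout, so Mixl1, the line and the drug cannot be told apart.

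Retinoic acid is made from vitamin A in a pair of oxidations. Retinol is first turned into retinal, chiefly by RDH10 in the embryo, and DHRS3 runs that step backwards; the ALDH1A enzymes then turn retinal into retinoic acid. CYP26 enzymes break retinoic acid down, and the small proteins CRABP1 and CRABP2 hold it in the cytoplasm. In the gastrulating embryo ALDH1A2 in the mesoderm is the main source of retinoic acid, and CYP26A1 keeps the head region and the tail bud low in it. Retinoic acid acts through nuclear receptors that sit as RAR and RXR pairs on direct repeats in DNA.

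In the induced libraries transcripts for synthesis were lower, the Cyp26a1 transcript for breakdown was higher, and the prevailing binding protein transcript changed from Crabp2 to Crabp1. Of the 9 genes, 8 passed the filter on low counts, and all 8 passed an adjusted p of 0.05 (edgeR quasi-likelihood test), 2 of them rising and 6 falling. That share has to be read against a background in which 62.6% of the 15091 tested genes were called, 31.0% higher and 31.6% lower. For each of the 8, no induced library overlapped a knockout library, as was the case for 67.1% of tested genes. The 8 genes had a median log2 fold change (induced over knockout) of -1.16, against 0.00 over all tested genes. Estimates of at least 2-fold were obtained for all of them except Cyp26b1, and 16.1% of tested genes were both called and at least 2-fold apart. When tested against a 2-fold change, Aldh1a2, Dhrs3, Cyp26a1 and Crabp2 passed, where 10.8% of tested genes did.

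**Figure D1:**
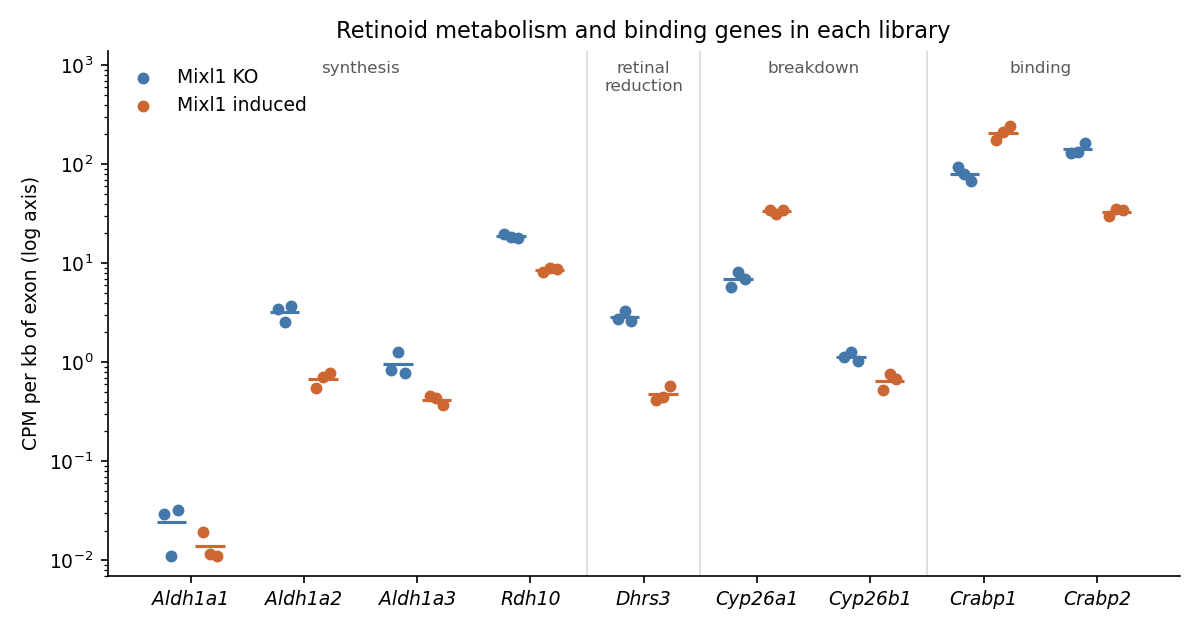
Level of each of the 9 genes in every library, in CPM per kb of exon on a log axis; points are libraries, lines are means of 3, blue is Mixl1 KO and orange Mixl1 induced. Cyp26a1 and Crabp1 lay higher in the induced libraries, 6 genes lay lower without overlap, and the Aldh1a1 points rest on 1 to 3 reads each.

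Between 17490426 and 21026423 reads per library were counted on genes. CPM are counts per 1e6 counts of tested genes, with library sizes scaled by TMM. Mixl1 itself stood at 39.8 ± 2.96 CPM (SD, n = 3) in the knockout libraries and at 432.5 ± 7.54 CPM (SD, n = 3) in the induced ones; reads over the whole gene do not check which part was deleted. All 10 epiblast markers were detected in both groups, and each differed between them: 6 rose and 4 fell. Pou5f1 fell from 1294 ± 44.5 to 807.1 ± 21.7 CPM (SD, n = 3), Nanog fell 3.02-fold and L1td1 3.70-fold, while Sox2 rose 3.63-fold, Fgf5 3.05-fold and Otx2 2.53-fold. The labels do not say that replicates came from separate cultures, so the p-values measure the spread between these libraries, which may be technical. In bulk RNA, fewer cells of a type and less RNA per cell cannot be told apart.

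Rdh10, which oxidises retinol to retinal, was the most abundant synthesis gene. It lies on chr1:16105774-16133734 (mm10, plus strand). The knockout libraries held 82.5, 76.3 and 74.3 CPM and the induced libraries 33.7, 37.4 and 36.3 CPM. The replicates were tight and the groups well apart, with a coefficient of variation of 5.52% among knockout and 5.34% among induced libraries. Rdh10 fell 2.18-fold (log2 fold change -1.12, SE 0.061; edgeR, adjusted p = 3.88e-13).

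Dhrs3, which reduces retinal back to retinol and is itself switched on by retinoic acid in many tissues, showed the largest change of the set. It lies on chr4:144892827-144928209 (plus strand). Its level was 8.05, 9.70 and 7.58 CPM in the knockout libraries and 1.21, 1.31 and 1.69 CPM in the induced libraries. Every knockout library was at least 4.48-fold above every induced one. The fall was 6.01-fold (log2 fold change -2.59, SE 0.18; edgeR, adjusted p = 3.25e-11), and 3.84% of tested genes changed by more. Rdh10 and Dhrs3, whose products run this exchange in opposite directions, were thus both lower, but unequally. Per kb of exon, the ratio of Rdh10 to Dhrs3 went from 6.55 ± 0.892 to 18.2 ± 2.75 (SD, n = 3), with no overlap of libraries.

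The ALDH1A genes, for the step to retinoic acid, were low in both groups. Aldh1a2 (chr9:71215789-71296243, plus strand), the embryonic enzyme, had 162, 105 and 158 reads in the knockout libraries and 26, 28 and 32 in the induced libraries. On the CPM scale these were 7.90, 5.79 and 8.32 against 1.25, 1.6 and 1.75, so the lowest knockout library was 3.31-fold above the highest induced one. Aldh1a2 fell 4.81-fold (log2 fold change -2.27, SE 0.19; edgeR, adjusted p = 8.8e-10). Aldh1a3 (chr7:66390890-66427517, minus strand), known from eye and nasal development, had 3.90, 5.90 and 3.63 CPM in the knockout and 2.12, 2.00 and 1.69 CPM in the induced libraries. Knockout replicate 2 was the highest for Aldh1a3 and the lowest of its group for Aldh1a2. Aldh1a3 fell 2.29-fold (log2 fold change -1.19, SE 0.21; edgeR, adjusted p = 3.51e-05).

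Aldh1a1 (chr19:20492715-20643465, plus strand), the adult liver and dorsal retina enzyme, was close to undetected. It had 3, 1 and 3 reads in the knockout libraries and 2, 1 and 1 in the induced ones, and it did not pass the filter. At that depth no difference was detectable, and in the authors' deposited table it had a log2 fold change of -0.78 with an adjusted p of 0.703. Aldh1a7, a near copy of Aldh1a1, had 0 reads in all knockout libraries together and 10 in the induced ones, and reads that fitted both copies equally would have been dropped. Summed per kb of exon, the 3 ALDH1A transcripts stood at 4.23 ± 0.343 CPM per kb in the knockout and 1.11 ± 0.068 CPM per kb in the induced libraries (SD, n = 3). Aldh1a2 supplied 76.1% ± 8.35 of that sum in knockout and 60.7% ± 6.79 in induced libraries (SD, n = 3), and these shares overlapped between groups.

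Breakdown genes moved in opposite directions. Cyp26a1 (chr19:37697798-37701536, plus strand), the gastrulation-stage enzyme, had 235, 291 and 262 reads in the knockout libraries and 1429, 1099 and 1267 in the induced ones. These were 11.46, 16.04 and 13.79 CPM against 68.9, 62.8 and 69.2 CPM, and every induced library lay above every knockout library. Cyp26a1 rose 4.89-fold (log2 fold change 2.29, SE 0.087; edgeR, adjusted p = 1.88e-14). Cyp26b1 (chr6:84571414-84593908, minus strand), the enzyme of limb buds and hindbrain, had 6.0, 6.83 and 5.47 CPM in knockout and 2.80, 4.06 and 3.66 CPM in induced libraries. Cyp26b1 fell 1.75-fold, the smallest change of the set (log2 fold change -0.81, SE 0.16; edgeR, adjusted p = 0.000171). The third family member, Cyp26c1, had 6 and 4 reads in the groups and was not tested.

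The ratio of Cyp26a1 to Cyp26b1 per kb of exon was 5.16, 6.33 and 6.80 in the knockout libraries and 66.5, 41.8 and 51.0 in the induced libraries. Cyp26a1 was therefore the main CYP26 transcript in both groups, and by a wider margin in the induced one. Set against Aldh1a2, Cyp26a1 stood at 1.66, 3.16 and 1.89 per kb in the knockout libraries and at 62.7, 44.8 and 45.2 in the induced libraries. The mean of this Cyp26a1 to Aldh1a2 ratio went from 2.24 ± 0.811 to 50.9 ± 10.3 (SD, n = 3). This 22.7-fold difference pairs the breakdown transcript that rose with the ALDH1A transcript that fell most, and says nothing of enzyme activity. Per kb of exon, the summed Cyp26a1 and Cyp26b1 level was 4.26-fold higher in the induced group mean, and the summed ALDH1A level 3.81-fold lower.

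**Figure D2:**
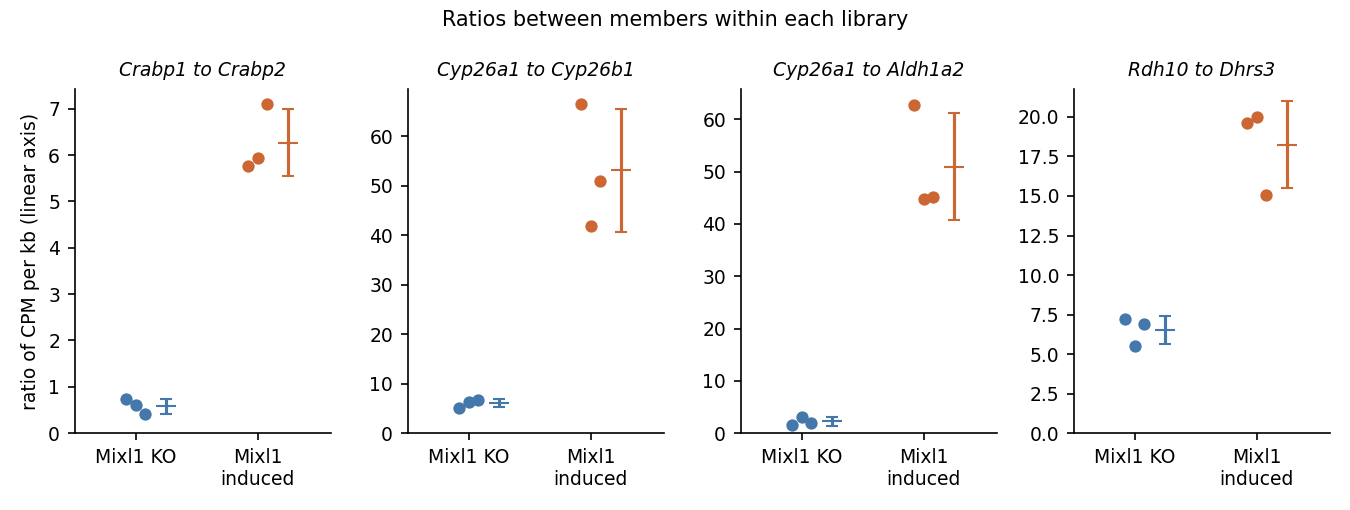
Ratio of CPM per kb of exon between pairs of genes within each library, on linear axes from 0; points are libraries, and the bar beside them gives mean and SD of 3. In all 4 pairs the induced libraries lay above every knockout library, with Crabp1 to Crabp2 at 0.581 ± 0.159 and 6.27 ± 0.721.

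The genes of the cellular retinoic acid binding proteins moved in opposite directions. Crabp2 (chr3:87948666-87953376, plus strand), which delivers retinoic acid to its receptors, had 170.6, 174.0 and 216.5 CPM in the knockout libraries and 39.9, 47.0 and 45.2 CPM in the induced libraries. It fell 4.26-fold (log2 fold change -2.09, SE 0.10; edgeR, adjusted p = 8.7e-08). Crabp1 (chr9:54764748-54773110, plus strand), which is thought to hold retinoic acid back and promote its turnover, had 75.4, 63.6 and 54.2 CPM in the knockout and 139.9, 168.9 and 194.5 CPM in the induced libraries. Both groups were loose for Crabp1, with a coefficient of variation of 16.5% and 16.3%, yet the lowest induced library was 1.86-fold above the highest knockout library. Crabp1 rose 2.60-fold (log2 fold change 1.38, SE 0.18; edgeR, adjusted p = 0.00203).

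Within a library, Crabp1 per kb of exon was 0.728, 0.602 and 0.412 times Crabp2 in the knockout group and 5.78, 5.93 and 7.09 times in the induced group. The ratio differed 10.8-fold between the group means. Their summed level overlapped between the groups, at 221.8 ± 10.3 and 242.5 ± 36.2 CPM per kb (SD, n = 3). The exchange thus came with a sum whose group means differed by less than the spread of the induced libraries.

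The order of the levels changed accordingly. In knockout libraries it ran, in mean CPM per kb of exon, Crabp2 (141.5), Crabp1 (80.3), Rdh10 (18.7), Cyp26a1 (6.94), Aldh1a2 (3.24), Dhrs3 (2.88), Cyp26b1 (1.14), Aldh1a3 (0.970) and Aldh1a1 (0.024). The ranges of Aldh1a2 and Dhrs3 overlapped, as did those of Cyp26b1 and Aldh1a3. In induced libraries Crabp1 led (209.2), followed by Cyp26a1 (33.8) and Crabp2 (33.3), whose ranges overlapped, and by Rdh10 (8.60). Aldh1a2 (0.677), Cyp26b1 (0.655), Dhrs3 (0.480) and Aldh1a3 (0.420) then followed, each overlapping its neighbour, and Aldh1a1 (0.014) was last.

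The promoter of Cyp26a1 is shown because it carries the textbook response element of this pathway and because Cyp26a1 went against most of the retinoic acid responsive genes described below. RefSeq promoter windows were taken from GRCm38.p6, the mm10 assembly, from 250 bases before to 50 after a start. None was found for Aldh1a3, Rdh10 and Crabp2, which were therefore not searched. The other 6 of the 9 genes had 9 windows in all, with partial overlap for Dhrs3. Each was searched on both strands for direct repeats of the half-site AGGTCA, also with G as the first base or T as the third, with 5 bases between the copies (DR5) or 2 (DR2), the classical RAR and RXR elements. The stretch before the annotated start of Cyp26a1, chr19:37697558-37697797 on the plus strand, reads as follows, with the DR5 match in capitals.
Cyp26a1: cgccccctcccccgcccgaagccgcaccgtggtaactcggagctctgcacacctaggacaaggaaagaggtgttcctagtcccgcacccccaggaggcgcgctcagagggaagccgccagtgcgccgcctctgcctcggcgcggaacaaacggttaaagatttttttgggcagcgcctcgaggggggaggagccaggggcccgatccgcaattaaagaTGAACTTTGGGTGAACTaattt

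The match lies on the minus strand, 32 to 16 bases before the RefSeq start, and it was the only DR5 in the windows of the set. A DR5 was present in 0.0975% of all 32817 windows of that length, and a DR2, held by none of the 9 windows, in 0.268%. Among 57 genes of the set and of the pathway lists with a window, the only other gene with either repeat was Rarb, the receptor gene with the best known such element. Both matched repeats are given for comparison, each 5′ to 3′ on its gene's strand.
Cyp26a1: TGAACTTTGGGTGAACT
Rarb: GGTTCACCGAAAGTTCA

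Rarb, with the same kind of repeat, was close to undetected. It had 18 reads in all knockout libraries together and 11 in the induced ones and did not pass the filter, whereas Cyp26a1 had 788 and 3795. The palindrome TAATNNNATTA, a site that MIXL1 and related homeodomain proteins bind in vitro, was in none of the 9 windows and in 0.485% of all windows. The half-site of the T protein, AGGTGTGA on either strand, was in 1.27% of all windows and, in the set, only in the upstream window of Aldh1a1. These are matches of letters in short windows, and binding was not measured.

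Genes that sense retinoic acid were expressed in both groups. Of 8 genes for receptors and for the alternative carrier FABP5 with its receptor PPARD, 7 were tested, and 3 rose and 4 fell (median log2 fold change -0.25). Rarg, the RAR gene of the primitive streak region, fell 1.85-fold from 118.9 ± 5.45 to 64.2 ± 1.49 CPM (SD, n = 3). Fabp5 and Rxrg fell as well, with log2 fold changes of -0.61 and -0.48. Rxra, Rxrb and Rara rose slightly, by 0.26, 0.19 and 0.17 on the log2 scale, and the call for Rara was lost without knockout replicate 3 (edgeR, adjusted p = 0.0613) or induced replicate 1 (adjusted p = 0.12).

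**Figure D3:**
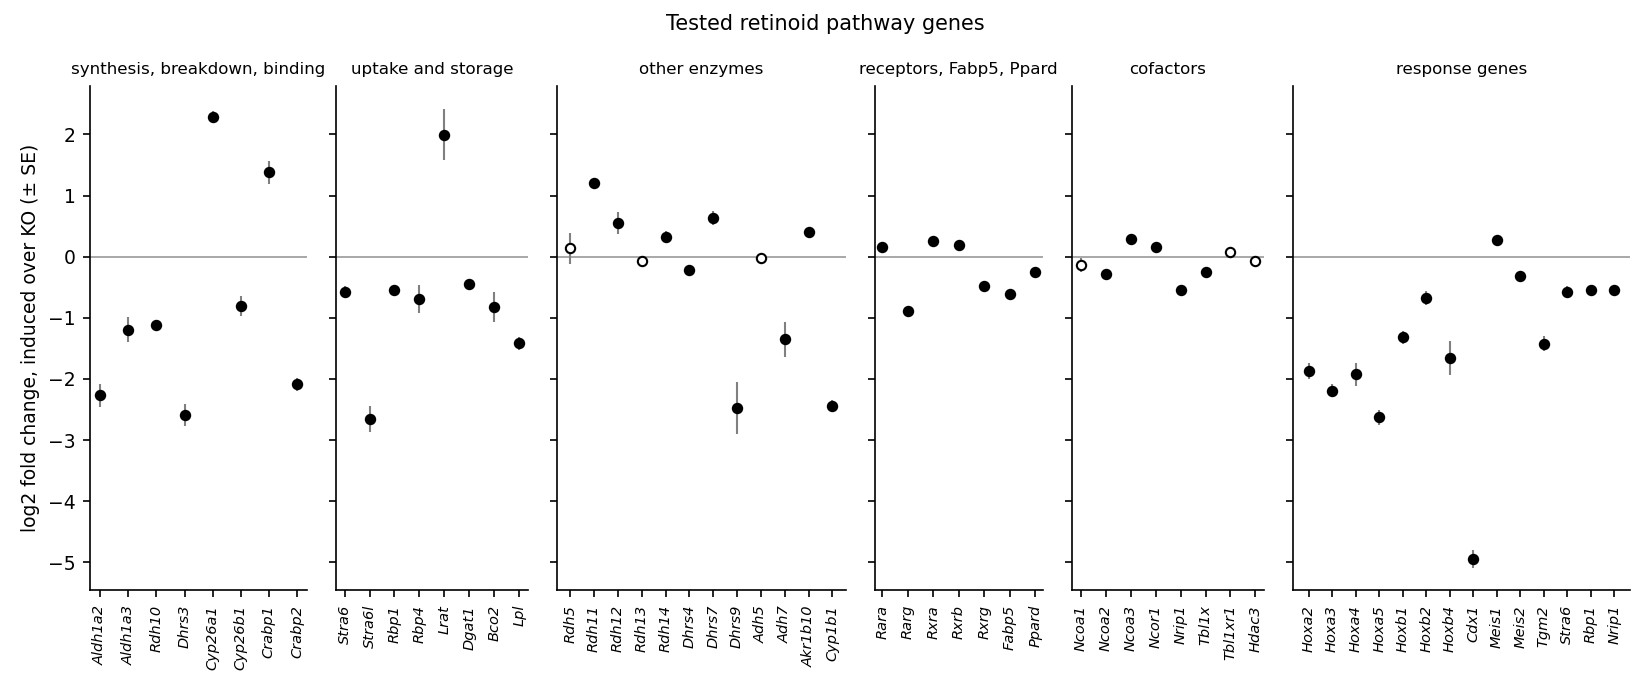
Log2 fold change, induced over knockout, with its standard error for every tested gene of the set and of the pathway lists; filled points passed an adjusted p of 0.05 in edgeR and open points did not. Of 14 tested response genes 13 lay below 0 and passed, while Cyp26a1 in the first panel was at 2.29.

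Genes that retinoic acid induces in embryonic cells were mostly lower. Of 18 listed, 14 were tested, and 13 fell and 1 rose, with a median log2 fold change of -1.37; this list contains none of the 9 genes. The caudal factor gene Cdx1 fell from 43.1 ± 6.68 to 1.40 ± 0.125 CPM (SD, n = 3), and the Hox gene Hoxa5 from 18.6 ± 1.94 to 3.00 ± 0.168 CPM (SD, n = 3). Hoxa3 had a log2 fold change of -2.19. Meis1, for a cofactor of Hox proteins, rose by 0.27 on the log2 scale.

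Uptake and storage genes also fell for the most part. Of 15 listed, 8 were tested, with 7 lower and 1 higher (median log2 fold change -0.64). Stra6l, for a retinol transporter related to STRA6, fell from 10.9 ± 2.85 to 1.74 ± 0.382 CPM (SD, n = 3), Lpl, for lipoprotein lipase, from 52.5 ± 6.70 to 19.5 ± 2.67 CPM (SD, n = 3), and Rbp4, for the plasma retinol carrier, by 0.70 on the log2 scale. The call for Rbp4 was lost without knockout replicate 1 (edgeR, adjusted p = 0.0813). Lrat, which esterifies retinol for storage, was the 1 that rose, from 13 to 52 reads per group, and is named although its level was below the minimum for named genes.

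Other retinoid enzymes went both ways. Of 22 listed, 12 were tested, with 5 higher and 4 lower (median log2 fold change 0.05). Rdh11, a retinal reductase, rose from 51.5 ± 1.62 to 118.0 ± 9.96 CPM (SD, n = 3), in contrast to the reductase gene Dhrs3. Dhrs7 and Rdh12 rose by 0.63 and 0.55 on the log2 scale, the latter call being lost without knockout replicate 1 (edgeR, adjusted p = 0.11) or induced replicate 1 (adjusted p = 0.0557). Cyp1b1, which can oxidise retinol and retinal, fell from 49.5 ± 6.09 to 9.12 ± 0.897 CPM (SD, n = 3). Dhrs4 fell by 0.23 on the log2 scale, a call lost without induced replicate 2 (edgeR, adjusted p = 0.0564). Over the 5 pathway lists together (the fifth, of receptor cofactors, is given with the closing observations), 49 of 71 genes were tested, and 12 rose and 30 fell.

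Markers of other cell types moved with these differences. Fibroblast markers, which the feeder cells would bring and mesenchymal cells also express, were all 10 detected, none being at 0. Of these, 6 fell and 3 rose, and their summed level ran from 676.5 to 867.0 CPM in the knockout libraries and from 455.4 to 638.1 CPM in the induced libraries. Dcn fell from 6.30 ± 0.797 to 1.01 ± 0.165 CPM (SD, n = 3), which on the log2 scale is -2.64 beside -2.59 for Dhrs3, while Col1a2, Thy1 and Lum rose. The part of fibroblast RNA in the fall of Dhrs3, Aldh1a2, Aldh1a3 and Cyp26b1 was not tested.

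**Figure D4:**
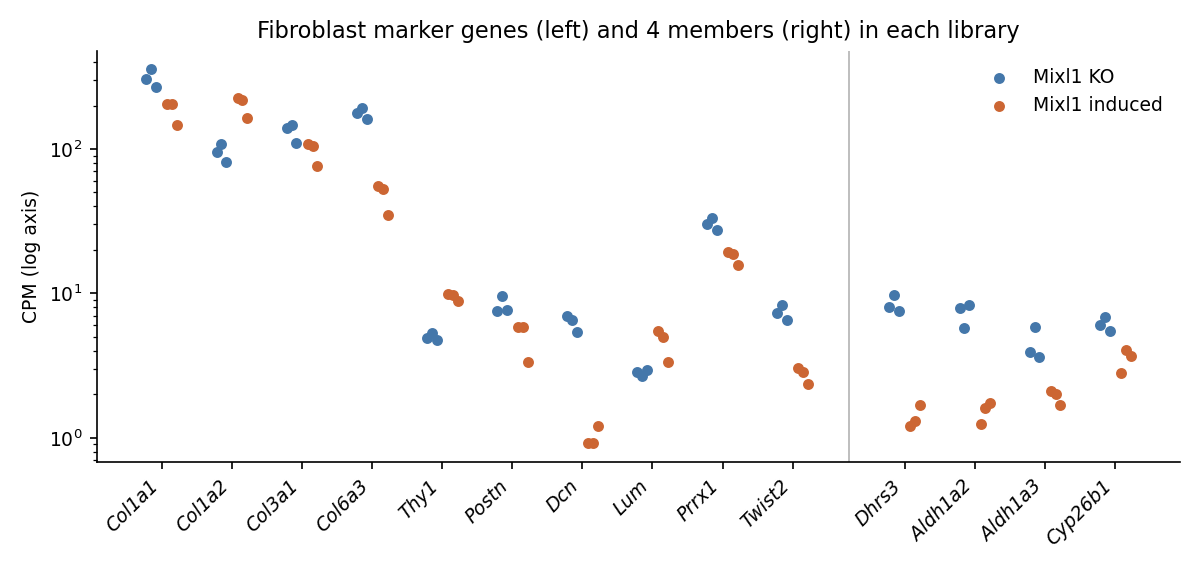
CPM on a log axis in each library for 10 fibroblast markers and, to the right of the line, for 4 genes of the set at similar low levels; blue is Mixl1 KO and orange Mixl1 induced. Dcn and Dhrs3 show like differences between groups, whereas Col1a2, Thy1 and Lum were higher in the induced libraries.

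Markers of mesoderm, in which Aldh1a2 is normally expressed, were split. Of 10, 5 fell and 4 rose, and their sum ran from 1803 to 1902 CPM in knockout and from 260.8 to 301.8 CPM in induced libraries, mostly from T. On the log2 scale Hes7 fell by 4.37, the somite gene Meox1 by 3.36, T by 3.14, Tcf15 by 1.23 and Tbx6 by 0.60. Foxc2 rose by 3.90, Mesp1 by 3.81, Mesp2 by 3.45 and Foxc1 by 1.81, and Msgn1 did not pass the threshold. Aldh1a2 fell by 2.27. Markers of endoderm, whose anterior cells can express Cyp26a1 in the embryo, summed to 160.3 to 170.3 CPM in knockout and 205.8 to 215.4 CPM in induced libraries, with 5 of 10 higher and 3 lower; none of the 10 was at 0. Trh and Cldn6, which fell, made up most of the sum in knockout libraries. Cer1, a secreted inhibitor made by anterior endoderm, rose from 0.276 ± 0.0498 to 51.1 ± 3.30 CPM (SD, n = 3). Gata6 rose 38.3-fold, Gata4 25.3-fold and Gsc 21.6-fold, each from 1.16 CPM or less in knockout libraries, whereas Sox17 (log2 fold change 0.68) and Hhex (-0.06) did not pass the threshold. Neural markers summed to 333.0 to 350.5 CPM in knockout and 280.3 to 301.5 CPM in induced libraries, with 4 of 9 tested higher and 1 lower. Nes, the 1 that fell, made up most of these sums, at a mean of 317.5 CPM in knockout and 167.9 CPM in induced libraries. Irx3 rose from 6.45 ± 1.09 to 70.1 ± 2.89 CPM (SD, n = 3), and Sox1 was 1.96 higher on the log2 scale. Hesx1 and Neurog2 rose by 4.07 and 2.48 on that scale, from low knockout means of 0.0522 and 0.349 CPM. Pax6, Pax3, Zic1 and Lhx2 did not pass the threshold. The part of these cell types in the differences of the 9 genes was not tested.

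Profiles over the 6 libraries were compared with those of 10945 protein-coding genes, as the root mean square difference of log2 CPM around each gene's mean. The nearest to Cyp26a1 were Gchfr (0.071) and Zfpm1 (0.097). Those nearest to Dhrs3 were Abca8b (0.093) and the fibroblast marker Dcn (0.12), and to Aldh1a2 Smim10l2a (0.12) and Gnai1 (0.13). Crabp2 was nearest to Sp6 (0.051) and Ndrg1 (0.090), and Crabp1 to Cyp4f15 (0.096) and Olig3 (0.11). For Rdh10 they were Zswim9 (0.017) and Pogk (0.045), for Aldh1a3 Adamtsl5 (0.060) and Plau (0.10), and for Cyp26b1 Snx29 (0.061) and Kctd21 (0.11). With 6 libraries in 2 groups, such likeness mostly reflects a similar difference between the groups.

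Counting by strand mattered little for the set. Reads on the other strand were at most 0.307% of the stranded reads of any of the 9 genes, and no annotated exon overlapped theirs. In the authors' deposited table, all 8 tested genes had the same direction, with log2 fold changes within 0.019 of those given here, such as 2.29 for Cyp26a1 and -2.57 for Dhrs3.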

How the data were processed

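The authors deposited raw counts of reads per gene for each library, with unstranded, sense and antisense columns, and, per the file headers, a DESeq2 table with log2 fold changes, a Wald score, p-values, their −log10 and the mean normalised count as a signal. The genome was mm10 and the tools bcl2fastq, STAR and DESeq2, per the submitters' processing notes; their versions are not given in the sources consulted. Per the labels' protocols the mRNA kit was stranded, and the antisense column held 96.2% to 96.3% of stranded gene reads. Rows naming no gene took 15.1% to 17.6% of reads and were left out.

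Names, positions and exon lengths came from GENCODE M21 (55230 of 55471 identifiers matched). The test was edgeR 4.0.16's, run in R 4.3.3 on genes passing filterByExpr (TMM, robust quasi-likelihood fit, group as the only term, two-sided, Benjamini-Hochberg over all 15091 tested genes, threshold 0.05). The procedure was tested on simulated data. Standard errors are the log2 fold change over the square root of F, with a median of 0.084. Levels between genes are CPM per kb of all exon bases.

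The 9 genes, the lists and the tests were chosen with earlier results of these data known. Besides the set and Mixl1, genes were named by rule: up to 3 largest rises and 3 largest falls per pathway list among genes past the threshold with at least 2 CPM in the higher group, and the 2 nearest profiles per gene among genes with at least 5 CPM; the cell type markers named singly, Lrat and genes with too few reads were chosen after their values were seen. Some genes of the lists of cofactors and of response genes are not reported here and are left out of the counts and medians of those lists. Replicates of a group differed beyond counting noise (chi-square per degree of freedom 2.25 to 5.18), and replicate numbers did not pair the libraries. Alternatives were other scalings (DESeq2 1.42.0 size factors, upper quartile), filters, tests (DESeq2, limma-voom with limma 3.58.1, a 2-fold null), unstranded counts, a replicate block, a threshold of 0.01 and leaving out each library.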

Additional observations from a re-analysis of the deposited data

How the results depend on the processing

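All 8 tested genes of the set kept their direction under each of 16 alternatives and, except for the test against a 2-fold change, their call. Under that test Rdh10 (log2 fold change -1.12, adjusted p = 0.0675), Crabp1 (1.38, adjusted p = 0.129), Aldh1a3 (-1.19, adjusted p = 0.488) and Cyp26b1 (-0.81, adjusted p = 1) did not pass, so 1 gene of the set was called higher and 3 lower, 2 of the pathway genes higher and 12 lower, and 642 of all tested genes higher and 986 lower; a stricter null by its construction calls fewer genes. Over the alternatives log2 fold changes ran from 2.16 to 2.41 for Cyp26a1, from 1.25 to 1.5 for Crabp1, from -2.75 to -2.48 for Dhrs3, from -2.41 to -2.13 for Aldh1a2 and from -1.32 to -0.95 for Aldh1a3. With the replicate block, the log2 fold change of Cyp26a1 was 2.29 and that of Aldh1a3 -1.18, and no call of the set changed; same-numbered libraries had correlations of their deviations of -0.003, 0.046 and 0.040, so the numbers gave no pairing. Across the other 40 named genes, 607 of the values under alternatives stayed on the same side of the threshold, 32 lost their call and 0 reversed. Leaving out each library in turn gave a Crabp1 to Crabp2 ratio of 0.507 to 0.665 in knockout and 5.85 to 6.51 in induced libraries. Depth limits Aldh1a1, Cyp26c1 and Rarb, whose reads were too few to test, and the labels leave Mixl1, the line and doxycycline inseparable.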

Other observations

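Cofactors of the retinoic acid receptors differed little. Of 9 listed genes 8 were tested, and 2 rose and 3 fell, with a median log2 fold change of -0.11. The coactivator gene Ncoa3 rose from 66.3 ± 3.63 to 81.3 ± 2.53 CPM and the corepressor gene Ncor1 from 166.3 ± 4.66 to 184.5 ± 5.41 CPM (SD, n = 3). The corepressor gene Nrip1 fell by 0.54 on the log2 scale, the coactivator gene Ncoa2 by 0.29 and Tbl1x, for a subunit of corepressor complexes, by 0.25. Nrip1 is itself induced by retinoic acid and also stands in the list of response genes.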
